A study of Mus musculus with 18 samples.

Results

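The 8 genes described here are direct or zonal targets of Wnt signalling in the liver cells that surround the central vein: Axin2, Lgr5, Rnf43, Znrf3, Tbx3, Glul, Oat and Rhbg. They were matched by their exact gene symbol, and all 8 were found among 50600 genes in the 1 day table and among 17127 genes in the 12 hour table. The RNA came from whole livers of 18 male C57BL/6 mice aged 12 weeks. The 1 day experiment had 4 groups, each of 3 livers. HMRKO + MI and HMRKO + sham mice carried the floxed mineralocorticoid receptor gene (MR flox/flox) with Alb-Cre, a recombinase driven by the albumin promoter and used to delete the receptor in hepatocytes. LC + MI and LC + sham mice, the littermate controls, carried MR flox/flox without Cre. At 12 hours there were 2 groups of 3 livers from wild type C57 mice, C57 + MI and C57 + sham. MI is myocardial infarction, made by tying off a coronary artery of the heart for good, and sham is the surgery without the tie. The operation of the MI livers at 1 day and all times come from the series' design text, since the sample labels do not give them.

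In the liver lobule, endothelial cells of the central vein secrete Wnt ligands and R-spondins that keep β-catenin active in the neighbouring hepatocytes. Axin2, a scaffold of the β-catenin destruction complex, is induced by this signal and limits it. Rnf43 and Znrf3 are ubiquitin ligases that remove Frizzled receptors from the cell surface, and Lgr5 is a receptor through which R-spondins block these ligases. Tbx3 is a T-box transcription factor of pericentral hepatocytes. Glul (glutamine synthetase), Oat (ornithine aminotransferase) and Rhbg (an ammonium transporter) serve the capture of ammonia into glutamine in the last cells before the blood leaves the lobule.

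Promoter sequence was matched for 4 of the 8 members (Glul, Oat, Rnf43 and Axin2) in RefSeq, build GRCm38.p6, and is shown for the genes whose patterns the results turn on: Oat, which had the highest fold changes among the 8, and Glul and Axin2, from which the likeness to other genes was measured. Each run is the 250 bases before the annotated start, 5′ to 3′ on the gene's strand, with the letters CCAAT, or on the other strand ATTGG, in capitals. The windows are chr7:132576399-132576648 on the minus strand for Oat, chr1:153899679-153899928 on the plus strand for Glul and chr11:108920099-108920348 on the plus strand for Axin2.
Oat: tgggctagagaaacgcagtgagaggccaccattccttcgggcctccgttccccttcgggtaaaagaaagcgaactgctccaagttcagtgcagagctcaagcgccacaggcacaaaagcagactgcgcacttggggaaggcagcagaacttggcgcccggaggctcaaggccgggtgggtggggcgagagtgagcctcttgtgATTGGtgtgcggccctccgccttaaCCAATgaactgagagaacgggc
Glul: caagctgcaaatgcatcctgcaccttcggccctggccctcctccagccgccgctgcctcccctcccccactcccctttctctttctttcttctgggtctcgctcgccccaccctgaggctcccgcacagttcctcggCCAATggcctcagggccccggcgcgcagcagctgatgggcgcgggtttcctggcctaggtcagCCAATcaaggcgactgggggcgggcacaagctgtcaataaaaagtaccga
Axin2: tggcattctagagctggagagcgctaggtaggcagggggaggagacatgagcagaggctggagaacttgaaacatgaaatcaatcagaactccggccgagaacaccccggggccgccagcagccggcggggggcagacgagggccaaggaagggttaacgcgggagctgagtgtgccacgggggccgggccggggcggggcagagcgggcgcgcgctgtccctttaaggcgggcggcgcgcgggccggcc
The Oat window held CCAAT 2 times, 47 and 22 bases before the start, and the Glul window 2 times, 113 and 50 bases before it, while the Axin2 window held none. CCAAT on either strand is found in 33.8% of 32851 windows of this length. The GC box GGGCGG, read on the other strand as CCGCCC, was in the Axin2 window 2 times and in the Glul window 1 time, against 32.7% of all windows. TCAAAG, read on the other strand as CTTTGA, the core letters of TCF/LEF sites through which β-catenin acts, was in none of the windows of these 4 genes and in 13.8% of all windows, which says only that these letters are not in these stretches.

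Libraries at 1 day held 19098704 to 28945526 counts. At 12 hours C57 + MI libraries held 16745688 to 19190438 counts and C57 + sham libraries 1361564 to 2255837, so that at 12 hours depth and operation cannot be told apart. Nr3c2, the targeted receptor gene, had 0.89 to 1.10 CPM (the TMM-normalized count scaled to a common library size) in HMRKO + MI livers against 1.90 to 3.56 CPM in LC + MI livers (adjusted p = 0.00505, edgeR), and 2.55 to 3.76 CPM in HMRKO + sham against 4.71 to 6.70 CPM in LC + sham livers (adjusted p = 0.471, edgeR). Summed CPM of 9 hepatocyte marker genes was 102976 to 107902 in HMRKO + MI, 57268 to 77117 in HMRKO + sham, 79708 to 89085 in LC + MI and 84784 to 87789 in LC + sham livers. Cfd, a fat cell gene, stood at 34.2 to 191 CPM in HMRKO + sham and at 2.51 to 4.86 CPM in LC + sham livers. Mitochondrial genes took 18.9% of the counts of LC + MI replicate 1 and 15.6% of HMRKO + sham replicate 2, against 7.53% to 12.3% in the other livers at 1 day. The part of these differences in the results below was not tested. The labels do not say more of the replicates than that they are separate samples, so p-values measure the spread between these samples. In the main fit at 1 day that spread was estimated over all 4 groups together.

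In mice with the receptor, the first question was what infarction did to the 8 genes by 1 day. Axin2 and Tbx3 were higher in every LC + MI liver than in any LC + sham liver, Znrf3 was lower in every one, and Oat, Lgr5, Glul, Rhbg and Rnf43 had lower means with overlapping livers. How large a share of all genes separates in this way was not counted, here or in the other comparisons. Separation alone therefore singles out none of the 8. None of the 8 passed the test, edgeR's quasi-likelihood F test with Benjamini-Hochberg adjustment over 14266 genes and a threshold of 0.05, although 5 had an unadjusted p under 0.05, as did 21.9% of all genes. DESeq2 passed 1, Tbx3, at an adjusted p of 0.0493. Of all genes, 2.68% passed as higher and 2.33% as lower in LC + MI livers. The median log2 fold change of the 8 was −0.34, against 0.01 over all genes tested.

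In HMRKO mice the same comparison passed 1 of the 8 genes, Rnf43, which was lower in HMRKO + MI livers, and 3 had an unadjusted p under 0.05, as did 51.5% of all genes. Here 22.0% of all genes passed as higher and 21.7% as lower in HMRKO + MI livers, and neither share of the 8 is above its background. Axin2 was higher and Lgr5 lower in every HMRKO + MI liver than in any HMRKO + sham liver, and neither passed. Among infarcted mice, 2 of the 8 genes, Oat and Znrf3, were higher in HMRKO + MI than in LC + MI livers and 0 were lower, beside 14.6% of all genes higher and 16.2% lower. Between the sham groups edgeR passed 0 of the 8 genes, with 0 at an unadjusted p under 0.05 (5.87% of all genes) and 0 by DESeq2, beside 0.0210% of all genes higher and 0.0140% lower. The log2 differences of HMRKO + sham over LC + sham ran from −0.28 for Znrf3 to 0.26 for Oat. The interaction of genotype and operation also passed 0 of the 8 in edgeR, with 2 at an unadjusted p under 0.05 (33.3% of all genes) and 1, Znrf3, by DESeq2, beside 6.74% of all genes with a higher and 8.50% with a lower response in HMRKO livers. These comparisons share livers, and their values are given side by side and not as independent evidence.

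**Figure D1:**
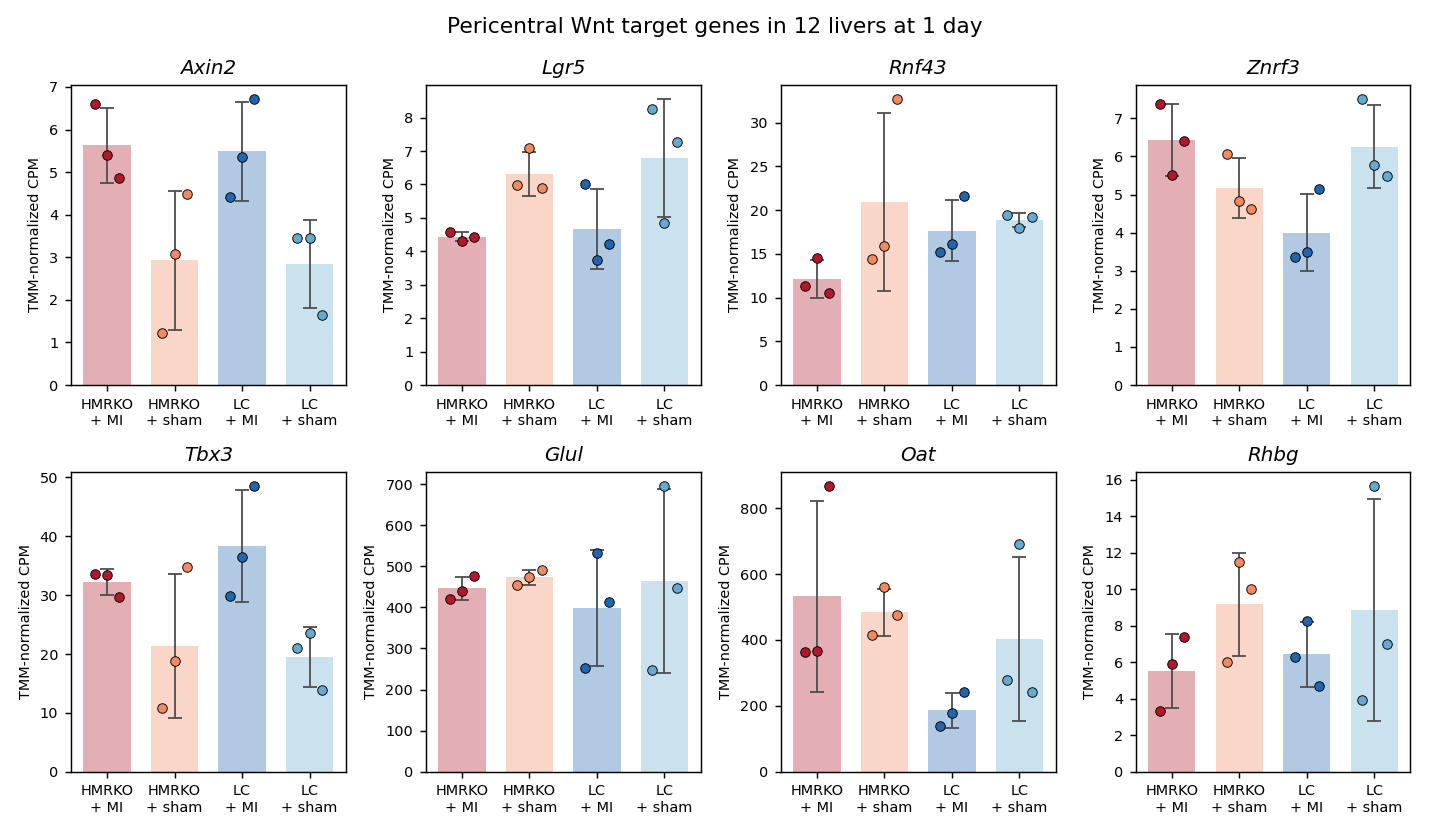
TMM-normalized CPM (y axes, linear from 0) of the 8 genes in the 12 livers at 1 day; each point is 1 liver, bars are group means and error bars are SD of 3 livers. Axin2 and Tbx3 sit higher in LC + MI than in LC + sham livers, and Oat sits lowest in LC + MI livers, whose mean was 186 CPM.

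Among the feedback genes, Axin2 had higher values in MI than in sham livers of both genotypes. Axin2 had 6.60, 5.40 and 4.87 CPM in HMRKO + MI livers, against 1.21, 3.08 and 4.48 CPM in HMRKO + sham livers. In LC mice it had 4.41, 5.35 and 6.71 CPM after MI, against 3.45, 3.44 and 1.64 CPM after sham surgery. In both genotypes the lowest MI liver stood above the highest sham liver, by a small gap in HMRKO mice, where the nearest livers had 4.87 and 4.48 CPM. The log2 fold changes were 0.94 in HMRKO mice (SE 0.39, adjusted p = 0.0646, edgeR) and 0.95 in LC mice (SE 0.38, adjusted p = 0.169, edgeR), and their difference, the interaction, was −0.01 (SE 0.54, adjusted p = 0.994, edgeR). Without HMRKO + sham replicate 3, the HMRKO value was 1.39 with an adjusted p of 0.0195 in edgeR, and it also passed without LC + sham replicate 3 (0.94, adjusted p = 0.0497, edgeR). Over 18 alternative runs the HMRKO value ran from 0.57 to 1.39 and passed in 4. Its adjusted p reached 0.187 among these edgeR and DESeq2 runs. The LC value ran from 0.68 to 1.11 over 18 runs and passed in 0. The raw counts behind these values ran from 96 to 148 reads in HMRKO + MI, 29 to 102 in HMRKO + sham, 88 to 194 in LC + MI and 44 to 96 in LC + sham livers.

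Rnf43, one of the Frizzled ligases, was the 1 member that passed in HMRKO mice after MI, with a lower mean. Rhbg, Lgr5 and Glul also had lower means there and did not pass. Rnf43 had 11.4, 14.5 and 10.5 CPM in HMRKO + MI livers, against 14.4, 15.9 and 32.7 CPM in HMRKO + sham livers. It had 15.2, 16.1 and 21.6 CPM in LC + MI livers, against 19.5, 18.0 and 19.2 CPM in LC + sham livers. HMRKO + sham replicate 3 was the highest of all 12 livers, the HMRKO groups touched at 14.4 and 14.5 CPM, and every HMRKO + MI liver was below every LC + MI liver. The log2 fold change in HMRKO mice was −0.79 (SE 0.27, adjusted p = 0.0308, edgeR), and in LC mice −0.10 (SE 0.26, adjusted p = 0.877, edgeR). HMRKO + sham replicate 3 decided the size of the fall: without it the value was −0.31 and the adjusted p 0.209 in edgeR. The call was also lost without HMRKO + MI replicate 1 (−0.74, adjusted p = 0.0860, edgeR) and without HMRKO + MI replicate 3 (−0.69, adjusted p = 0.0993, edgeR), and in a fit of the HMRKO livers alone (−0.79, adjusted p = 0.0553, edgeR). Between infarcted groups Rnf43 differed by −0.54 (SE 0.27, adjusted p = 0.143, edgeR), which passed only without HMRKO + sham replicate 3 (adjusted p = 0.0338, edgeR).

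Znrf3, the paralogous ligase, had its lowest values in LC + MI livers. Znrf3 had 7.38, 5.51 and 6.39 CPM in HMRKO + MI livers, against 6.07, 4.82 and 4.61 CPM in HMRKO + sham livers. It had 3.36, 3.50 and 5.15 CPM in LC + MI livers, against 7.50, 5.77 and 5.49 CPM in LC + sham livers. LC + MI livers were the lowest group, below every HMRKO + MI and every LC + sham liver, while the HMRKO groups overlapped. Znrf3 was 1.59-fold higher in HMRKO + MI than in LC + MI livers (log2 fold change 0.67, SE 0.22, adjusted p = 0.0329, edgeR), on 126 to 151 reads in HMRKO + MI and 67 to 149 reads in LC + MI livers. The call was lost without LC + MI replicate 1 (0.56, adjusted p = 0.113, edgeR), LC + MI replicate 2 (0.58, adjusted p = 0.0956, edgeR), HMRKO + MI replicate 1 (0.57, adjusted p = 0.102, edgeR) or HMRKO + MI replicate 3 (0.68, adjusted p = 0.0705, edgeR), and in a fit of these 2 groups alone (0.67, adjusted p = 0.0543, edgeR). The log2 fold change of MI over sham was 0.31 in HMRKO mice (SE 0.21, adjusted p = 0.257, edgeR) and −0.64 in LC mice (SE 0.21, adjusted p = 0.107, edgeR). The test of that difference gave 0.95 (SE 0.30, adjusted p = 0.0514, edgeR), at the edge of the threshold, and it passed in DESeq2 (0.94, adjusted p = 0.0310), among genes with a mean of 50 counts or more (0.93, adjusted p = 0.0480, edgeR), without LC + MI replicate 3 (1.18, adjusted p = 0.0278, edgeR) and without HMRKO + sham replicate 1 (1.08, adjusted p = 0.0492, edgeR). These were 4 of 17 alternative runs, and it did not pass in the others, with adjusted p up to 0.108 in edgeR.

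Lgr5, the R-spondin receptor, had lower values in MI than in sham livers and varied little among the HMRKO + MI livers. Lgr5 had 4.59, 4.31 and 4.41 CPM in HMRKO + MI livers, against 5.99, 7.08 and 5.88 CPM in HMRKO + sham livers. It had 6.01, 3.74 and 4.22 CPM in LC + MI livers, against 8.26, 4.85 and 7.28 CPM in LC + sham livers. The HMRKO groups did not overlap, and the LC groups overlapped through LC + MI replicate 1 and LC + sham replicate 2. The log2 fold changes of MI over sham were −0.51 in HMRKO mice (SE 0.22, adjusted p = 0.0830, edgeR) and −0.55 in LC mice (SE 0.22, adjusted p = 0.169, edgeR), with an interaction of 0.04 (SE 0.32, adjusted p = 0.938, edgeR). In a fit of the HMRKO livers alone the adjusted p was 0.0330 (log2 fold change −0.52, edgeR).

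Tbx3, the transcription factor, had higher means in MI than in sham livers of both genotypes. Tbx3 had 33.6, 33.4 and 29.6 CPM in HMRKO + MI livers, against 10.8, 18.7 and 34.8 CPM in HMRKO + sham livers. It had 29.8, 36.5 and 48.5 CPM in LC + MI livers, against 21.1, 23.5 and 13.9 CPM in LC + sham livers. HMRKO + sham replicate 3 was above all HMRKO + MI livers, while the LC groups did not overlap. The log2 fold changes were 0.59 in HMRKO mice (SE 0.33, adjusted p = 0.169, edgeR) and 0.98 in LC mice (SE 0.33, adjusted p = 0.112, edgeR). Without HMRKO + sham replicate 3, the same liver that was highest for Rnf43, the values were 1.13 in HMRKO mice (adjusted p = 0.0104, edgeR) and 0.97 in LC mice (adjusted p = 0.0483, edgeR), where that liver enters only the shared spread. Over 18 alternative runs in edgeR or DESeq2 the HMRKO value ran from 0.27 to 1.13. It passed in 1, with adjusted p up to 0.484. The LC value ran from 0.77 to 1.13 and passed in 3 of 18, with adjusted p up to 0.315 in these runs.

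Glul, the enzyme that makes glutamine, did not separate any 2 groups at 1 day. Glul had 421, 440 and 477 CPM in HMRKO + MI livers, against 454, 474 and 492 CPM in HMRKO + sham livers. It had 252, 532 and 412 CPM in LC + MI livers, against 249, 695 and 447 CPM in LC + sham livers. The HMRKO livers lay within 421 to 492 CPM, while the LC livers spread over 249 to 695 CPM. The log2 fold change was −0.09 in HMRKO mice (SE 0.32, adjusted p = 0.844, edgeR) and −0.22 in LC mice (SE 0.32, adjusted p = 0.741, edgeR), and the LC value was 0.19 without LC + sham replicate 2 (adjusted p = 0.802, edgeR).

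Oat, which converts ornithine on the way to glutamate, gave the largest difference between genotypes among the 8 after MI. Oat had 363, 367 and 867 CPM in HMRKO + MI livers, against 416, 559 and 476 CPM in HMRKO + sham livers. It had 138, 178 and 242 CPM in LC + MI livers, against 279, 690.5 and 242 CPM in LC + sham livers. Every HMRKO + MI liver was above every LC + MI liver, HMRKO + MI replicate 3 and LC + sham replicate 2 stood far above the rest of their groups, and the lowest LC + sham liver met the highest LC + MI liver at 242 CPM. Oat was 2.86-fold higher in HMRKO + MI than in LC + MI livers (log2 fold change 1.52, SE 0.42, adjusted p = 0.0170, edgeR). The call was lost without HMRKO + MI replicate 3 (0.97, adjusted p = 0.0856, edgeR) and without LC + MI replicate 1 (1.34, adjusted p = 0.0694, edgeR). The log2 fold change of MI over sham was 0.14 in HMRKO mice (SE 0.41, adjusted p = 0.804, edgeR) and −1.12 in LC mice (SE 0.41, adjusted p = 0.138, edgeR), where leaving out LC + sham replicate 2 gave −0.48 (adjusted p = 0.537 in edgeR). The interaction was 1.25 (SE 0.58, adjusted p = 0.150, edgeR), and leaving out that liver gave 0.62 (adjusted p = 0.418 in edgeR). Between sham groups Oat differed by 0.26 with all livers and by 0.89 without LC + sham replicate 2 (adjusted p = 0.830, edgeR).

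Rhbg, the ammonium transporter, was low and wide within groups. Rhbg had 3.36, 5.92 and 7.36 CPM in HMRKO + MI livers, against 6.03, 11.5 and 10.01 CPM in HMRKO + sham livers. It had 6.31, 8.28 and 4.70 CPM in LC + MI livers, against 3.95, 15.7 and 6.99 CPM in LC + sham livers. All groups overlapped, and LC + sham replicate 2 was again the highest liver, as for Glul. The log2 fold changes were −0.72 in HMRKO mice (SE 0.44, adjusted p = 0.203, edgeR) and −0.46 in LC mice (SE 0.43, adjusted p = 0.584, edgeR), and the LC value was 0.23 without LC + sham replicate 2 (adjusted p = 0.820, edgeR). The interaction was −0.25 for Rhbg, 0.13 for Glul, −0.39 for Tbx3 and −0.69 for Rnf43, with adjusted p of 0.218 or more in edgeR.

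**Figure D2:**
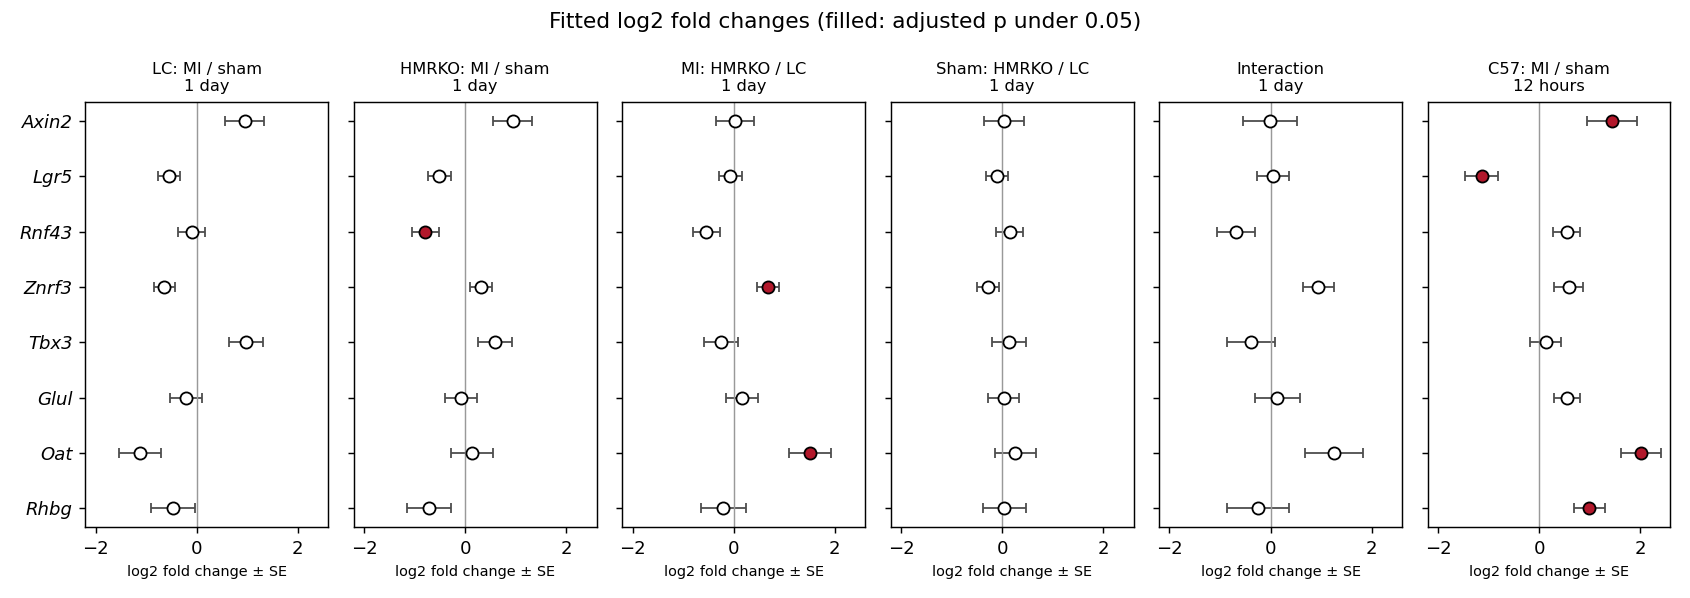
Fitted log2 fold change (x axis, with SE as bars) of each of the 8 genes in the 6 comparisons; filled points passed at an adjusted p under 0.05. Filled points are Rnf43 at −0.79 in HMRKO mice, Znrf3 at 0.67 and Oat at 1.52 between infarcted groups, and 4 genes at 12 hours.

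In order of group means at 1 day, neighbouring groups overlapped for all 8 genes with the exception of Rnf43, where LC + MI (17.6 ± 3.5 CPM, SD, n = 3) and HMRKO + MI (12.1 ± 2.1 CPM, SD, n = 3) were separate. For Axin2 and Tbx3 both MI groups ranked above both sham groups. For Lgr5 both sham groups ranked above both MI groups. For Glul and Rhbg HMRKO + sham ranked first, and for Oat and Znrf3 LC + MI ranked last.

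At 12 hours in wild type mice, 4 of the 8 genes passed, with Oat, Axin2 and Rhbg higher and Lgr5 lower in C57 + MI livers, beside 34.3% of all 12548 genes higher and 32.0% lower. All 4 also passed in DESeq2, 2 (Oat and Lgr5) in limma on TPM, and 1 (Oat) among genes with a mean of 50 counts or more. Of all genes, 4299 were higher and 4013 lower in C57 + MI livers, while limma on the TPM values called 2193 higher and 4995 lower of 11711. Hepatocyte markers summed to 98663 to 144126 CPM in C57 + MI livers and to 35843 to 39773 CPM in C57 + sham livers, and 10 stellate cell markers to 234 to 272 CPM in C57 + MI and 451 to 555 CPM in C57 + sham livers. In whole liver, fewer cells of a type and less RNA per cell cannot be told apart. The groups also depend on scale: the median log2 ratio over all genes tested was 0.10 on TMM-normalized CPM, −0.53 on plain totals and −0.49 on the deposited TPM (a level per transcript length, scaled to a fixed total). Against these medians, Oat (2.01, 1.40 and 1.39 on the same scales), Axin2 (1.55, 0.92 and 0.93), Rhbg (1.02, 0.36 and 0.36) and Lgr5 (−1.14, −1.76 and −1.76) kept their direction on each.

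Oat had 828, 234 and 561 CPM in C57 + MI livers, against 114, 137 and 151 CPM in C57 + sham livers. No C57 + MI liver overlapped C57 + sham, though C57 + MI replicate 2 stood well below the others of its group. Oat was 4.03-fold higher (log2 fold change 2.01, SE 0.39, adjusted p = 0.00112, edgeR) and passed in each alternative run. On TPM it had 428, 118 and 299 in C57 + MI livers, against 88.4, 111 and 121 in C57 + sham livers, where replicate 2 of C57 + MI fell inside the sham range.

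Axin2 had 13.5, 5.18 and 8.03 CPM in C57 + MI livers, against 1.18, 2.77 and 5.21 CPM in C57 + sham livers, where these rest on 2, 7 and 15 estimated reads. The groups touched at 5.18 and 5.21 CPM. The log2 fold change was 1.44 (SE 0.50, adjusted p = 0.0257, edgeR), and it was lost without C57 + MI replicate 1 (0.99, adjusted p = 0.0815, edgeR), C57 + sham replicate 1 (1.17, adjusted p = 0.0830, edgeR) or C57 + sham replicate 2 (1.38, adjusted p = 0.0795, edgeR), in limma on TPM (0.60, adjusted p = 0.155) and among genes with a mean of 50 counts or more (1.13, adjusted p = 0.0723, edgeR). With the C57 + MI libraries thinned to the sham depth, Axin2 was too low to be tested.

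Rhbg had 9.41, 15.3 and 14.4 CPM in C57 + MI livers, against 5.30, 5.93 and 7.99 CPM in C57 + sham livers, and the groups did not overlap. The values in C57 + sham livers rest on 9 to 23 estimated reads. The log2 fold change was 0.99 (SE 0.30, adjusted p = 0.0132, edgeR), and it was lost without C57 + MI replicate 2 (0.80, adjusted p = 0.0645, edgeR) or replicate 3 (0.85, adjusted p = 0.0599, edgeR), in limma on TPM (0.31, adjusted p = 0.259) and among genes with a mean of 50 counts or more (0.68, adjusted p = 0.0640, edgeR). On TPM its groups overlapped, with 6.41 to 9.73 in C57 + MI and 5.60 to 7.96 in C57 + sham livers.

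Lgr5 had 6.81, 3.24 and 4.97 CPM in C57 + MI livers, against 11.2, 11.5 and 10.4 CPM in C57 + sham livers. Each C57 + MI liver was below each C57 + sham liver, in which the values rest on 19 to 30 estimated reads. Lgr5 fell to 0.455 of its C57 + sham level (log2 fold change −1.13, SE 0.32, adjusted p = 0.00958, edgeR) and passed in each alternative in which it could be tested, with adjusted p between 0.00105 and 0.0401.

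Glul, Rnf43, Znrf3 and Tbx3 did not pass at 12 hours, though with no filter Glul (0.70, adjusted p = 0.0409, edgeR) and Znrf3 (0.73, adjusted p = 0.0488, edgeR) did. Glul had 898, 631 and 838 CPM in C57 + MI livers, against 410, 600 and 603 CPM in C57 + sham livers. Rnf43 had 10.1 to 13.8 CPM in C57 + MI and 5.89 to 9.73 CPM in C57 + sham livers, Znrf3 7.87 to 8.70 CPM in C57 + MI and 4.52 to 6.33 CPM in C57 + sham livers. These 3 genes were higher in every C57 + MI liver on TMM-normalized CPM, with log2 fold changes of 0.55, 0.55 and 0.58 and adjusted p of 0.0750, 0.0968 and 0.0867 in edgeR, but turned slightly lower on plain totals (−0.08, −0.06 and −0.07) and on TPM (−0.07, −0.07 and −0.08). Tbx3 had 33.1 to 78.6 CPM in C57 + MI and 38.8 to 60.5 CPM in C57 + sham livers (log2 fold change 0.14, adjusted p = 0.711, edgeR), and its ratio was −0.48 on both other scales.

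Per transcript length, the 12 hour TPM values rank the 8 genes within a liver. Glul (313 ± 61 TPM in C57 + MI and 329 ± 74 TPM in C57 + sham livers, SD, n = 3 each) and Oat (281 ± 156 TPM in C57 + MI and 107 ± 17 TPM in C57 + sham livers) were the most abundant. Tbx3 followed at 12.6 ± 5.6 TPM in C57 + MI and 17.6 ± 4.1 TPM in C57 + sham livers, and Rhbg at 8.60 ± 1.9 TPM in C57 + MI and 6.70 ± 1.2 TPM in C57 + sham livers. Rnf43, Axin2, Znrf3 and Lgr5 averaged 1.18 to 3.98 TPM in either group, and their order differed between the groups.

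**Figure D3:**
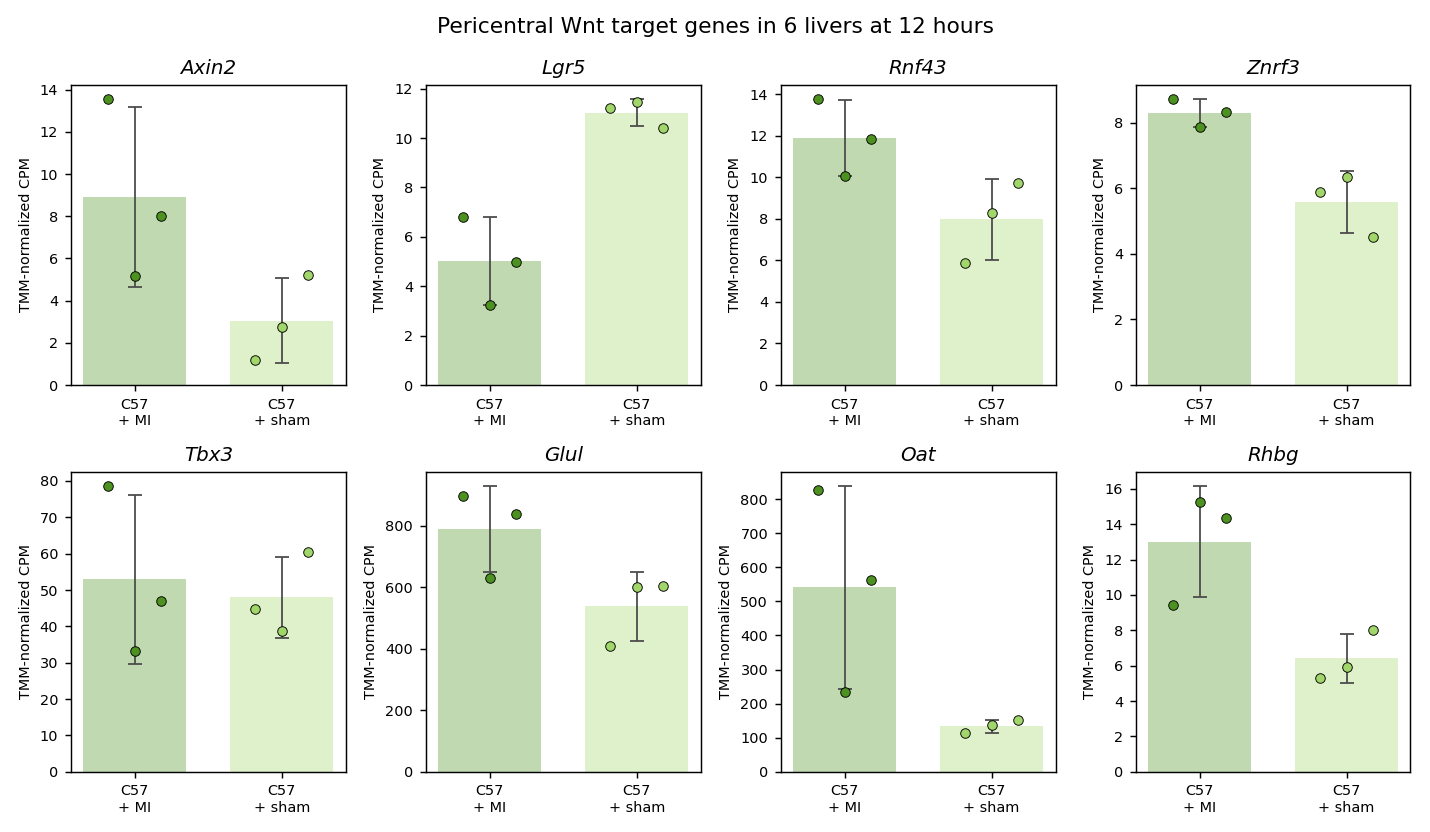
TMM-normalized CPM (y axes, linear from 0) of the 8 genes in the 6 livers at 12 hours; each point is 1 liver, bars are group means and error bars are SD of 3 livers. Oat sits between 234 and 828 CPM in C57 + MI livers, all above the C57 + sham livers, and Lgr5 sits lower in every C57 + MI liver.

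Over the 12 livers at 1 day, Axin2 and Tbx3 ran together. The Pearson r of their log2 CPM was 0.97 (Spearman rho 0.90), 0.95 after the group means were removed and 0.91 without the 2 livers farthest from the median of Axin2, and of 12139 genes Tbx3 was the one most like Axin2, followed by Cdkl2 (0.93) and Hic2 (0.92). The genes most like Glul were Stard5 (0.91), Nop10 (0.91) and Uqcr10 (0.90). Among the members, Glul and Rhbg had an r of 0.66 (rho 0.84; 0.83 without the 2 livers farthest on Glul) and Glul and Oat 0.58 (rho 0.54; 0.36 without those 2 livers). Glul and Lgr5 had −0.47 (rho −0.31), and −0.91 after group means were removed. With the 2 livers farthest on Glul left out these were −0.09 and −0.85, over 10 livers. The 28 pairs of members ranged from −0.67, for Lgr5 and Tbx3, to 0.97. These values describe 12 livers that share groups and library preparation.

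**Figure D4:**
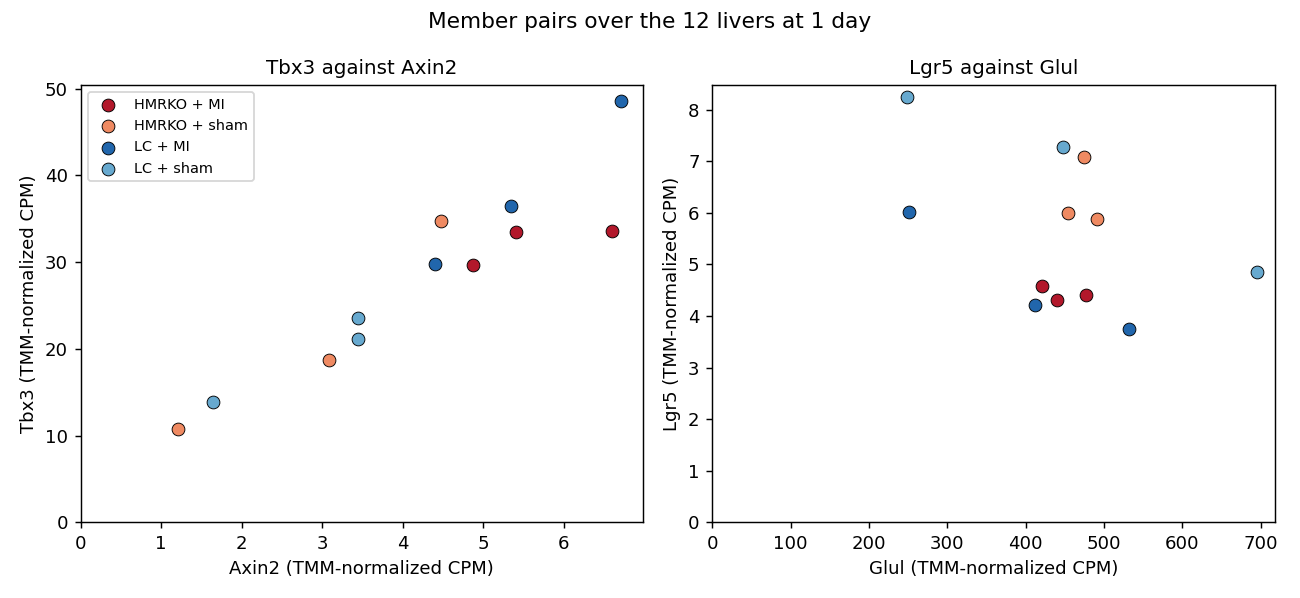
Tbx3 against Axin2 (left) and Lgr5 against Glul (right), both axes in TMM-normalized CPM and each point 1 of the 12 livers at 1 day, coloured by group. Tbx3 climbs with Axin2 across groups (r = 0.97 on log2 CPM), while Lgr5 and Glul scatter more across groups (r = −0.47).

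The rest of the pathway was read from lists of other genes. These lists share some genes, among them Rspo3, Wnt2, Notum, Lef1, Slc13a3, Lect2 and Gls2, so their counts are not independent. Of all genes, 2.68% passed as higher and 2.33% as lower in LC mice, and 22.0% and 21.7% in HMRKO mice. The shares were 14.6% and 16.2% between infarcted groups, 6.74% and 8.50% for the interaction and 34.3% and 32.0% at 12 hours. Of 16 Wnt ligands, R-spondins and their secretion factors, 11 were tested at 1 day. In LC + MI livers 2 of them rose, Wnt5a (log2 fold change 1.52) and Wnt5b (0.85), ligands best known for signalling without β-catenin. In HMRKO + MI against HMRKO + sham livers 2 rose, Rspo3 (1.10), an R-spondin of central vein endothelium, and Wnt5b (0.58). Rspo1 was lower in HMRKO + MI than in LC + MI livers (−2.77), and Wls, the carrier of Wnt proteins to the cell surface, passed the interaction (1.29). The Rspo1 call was lost when HMRKO + MI replicate 2 or 3 or LC + MI replicate 1 was left out. The interaction call was lost with the replicate block, with no filter and in 9 of the 12 fits that left out 1 liver. The exceptions were HMRKO + sham replicate 3 and LC + MI replicates 2 and 3. Among genes with a mean of 50 counts or more, only 4 of the list were tested. In either comparison 0 of these 4 passed. At 12 hours 1 of 8 tested was higher in C57 + MI livers, Porcn (1.09), and 4 were lower, among them Rspo3 (−3.21), Wnt4 (−3.63) and Wnt2 (−2.81), a ligand of the hepatic endothelium. The medians were 0.40 for LC mice, 0.58 for HMRKO mice and −1.14 at 12 hours, against 0.01, 0.01 and 0.11 over all genes. On TPM with limma 0 of the list were higher and 4 lower at 12 hours. The 2 calls in LC mice and the 2 in HMRKO mice ranged from 0 to 2 and from 0 to 3 when single livers were left out, with 0 in LC mice without LC + MI replicate 2 or 3 or LC + sham replicate 1 or 3, and 0 in HMRKO mice without HMRKO + MI replicate 1 or 2, HMRKO + sham replicate 1 or 2, LC + MI replicate 2 or 3, or LC + sham replicate 3.

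Of 17 other receptors and co-receptors, 11 were tested at 1 day. Lrp5, a co-receptor of the β-catenin branch, rose after MI in both genotypes (log2 fold change 1.36 in HMRKO mice, adjusted p = 1.98e-05, and 0.87 in LC mice, adjusted p = 0.00381, both edgeR), and was the 1 of the list that passed in LC mice. In HMRKO + MI against HMRKO + sham livers Ror1 (1.66) and Fzd6 (1.44) also rose and Fzd4 fell (−1.45), as 1 of 2 that were lower. Of all genes, 22.0% rose and 21.7% fell in HMRKO mice, and 2.68% rose and 2.33% fell in LC mice. Between infarcted groups 2 were higher and 1 lower in HMRKO + MI livers, beside 14.6% and 16.2% of all genes, and Ror1 (2.004) and Fzd4 (−0.55) were among them. The lower call was lost without HMRKO + MI replicate 1 or 2 or LC + MI replicate 1, and 1 of the 2 higher calls in 9 of the 12 fits that left out a liver, all but those without HMRKO + MI replicate 2, LC + MI replicate 3 or LC + sham replicate 1. The 2 lower in HMRKO mice became 1 without HMRKO + MI replicate 1 or 2. In C57 + MI livers at 12 hours 8 of 12 were higher and 2 lower, beside 34.3% and 32.0% of all genes. Ror1 (2.77) and Fzd7 (1.45) were among the higher, and Lgr6 (−2.80) and Ryk (−0.76) were lower. Limma on TPM called 1 higher and 1 lower of 8, and 5 were higher without C57 + MI replicate 2.

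Of 21 genes of the β-catenin machinery, 19 were tested at 1 day, and 0 passed in LC mice in edgeR, with 3 at an unadjusted p under 0.05 (21.9% of all genes). In HMRKO + MI against HMRKO + sham livers 4 rose and 3 fell, of 19, near or under the shares of all genes (22.0% higher and 21.7% lower). The 3 became 0 without HMRKO + MI replicate 1, and 1 with the replicate block or when HMRKO + MI replicate 2 or 3, HMRKO + sham replicate 2 or 3, LC + MI replicate 3 or LC + sham replicate 3 was left out. Axin1, the paralog of Axin2 that is not a Wnt target, rose by 0.73 on the log2 scale, and Csnk1a1, a kinase of the destruction complex, by 0.59. Against LC + MI livers 6 were higher and 3 lower in HMRKO + MI livers, beside 14.6% and 16.2% of all genes. Tnks (0.61), Axin1 (0.61) and Csnk1a1 (0.49) were higher and Dvl1 (−0.74) lower. The interaction passed 4 as higher and 0 as lower, beside 6.74% and 8.50% of all genes. The 4 were Axin1 (0.85), Ctnnb1 (0.87), Csnk1a1 (0.63) and Tnks (0.70), where Ctnnb1 encodes β-catenin and Tnks degrades Axin. At 12 hours 7 of 20 were higher and 6 lower in C57 + MI livers, near the 34.3% and 32.0% of all genes. Lef1 (−6.12), Amer1 (−3.56) and Tcf7l2 (−1.73) were among the lower, and limma on TPM called 3 higher and 8 lower of 19. The 4 interaction calls became 2 with the replicate block. Leaving out single livers took them to between 0 and 3, with 0 without HMRKO + MI replicate 3, HMRKO + sham replicate 2 or 3, or LC + sham replicate 2. The higher calls between infarcted groups ran from 2, without LC + MI replicate 1, or 3, without HMRKO + MI replicate 3, to 6, and the lower calls were 0 without either of these livers.

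Of 13 secreted inhibitors 3 were tested at 1 day. Notum, which removes the lipid that Wnt ligands need and is itself a Wnt target, had 1.34 to 4.11 CPM in HMRKO + MI livers, against 27.1 to 29.4 CPM in HMRKO + sham livers, and 11.2 to 22.3 CPM in LC + MI livers, against 20.7 to 29.8 CPM in LC + sham livers. It fell by 3.35 on the log2 scale in HMRKO mice (adjusted p = 3.26e-05, edgeR), differed by −2.44 from LC + MI livers (adjusted p = 0.000911, edgeR) and passed the interaction at −2.62 (adjusted p = 0.00769, edgeR). At 12 hours 4 of 6 inhibitors were lower in C57 + MI livers and 0 higher, Notum at −2.86 among them, beside 32.0% and 34.3% of all genes. Of 16 other Wnt target genes 14 were tested at 1 day, and 0 passed as higher in the 5 comparisons there. In HMRKO + MI livers 7 fell against HMRKO + sham, with Notum, Slc13a3 (−1.86), Lect2 (−1.38) and Cyp27a1 (−0.97) first, and 4 were lower than in LC + MI livers, or 2 without HMRKO + MI replicate 2, LC + MI replicate 1 or LC + MI replicate 3. Of all genes, 21.7% fell in HMRKO mice and 16.2% were lower in HMRKO + MI than in LC + MI livers. In LC mice 0 of these targets passed in edgeR, with 5 at an unadjusted p under 0.05 (21.9% of all genes). At 12 hours 3 were higher and 6 lower in C57 + MI livers, and 1 higher and 8 lower in limma on TPM. In HMRKO mice the median of these targets was −0.87. The members lay on both sides of 0 there. Axin2 (0.94), Tbx3 (0.59), Znrf3 (0.31) and Oat (0.14) were higher and did not pass. Rnf43 (−0.79) was lower and passed, and Rhbg (−0.72), Lgr5 (−0.51) and Glul (−0.09) were lower and did not.

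In HMRKO + MI against HMRKO + sham livers, 22.0% of all genes were higher and 21.7% lower. Of 25 other pericentral genes, most of them cytochromes and transporters, 15 fell and 1 rose there, with a median log2 fold change of −0.94. The first were Cyp2a5 (−3.36), Slc13a3 (−1.86), Lect2 (−1.38) and Gulo (−1.24). In LC mice 4 fell and 1 rose, beside 2.33% and 2.68% of all genes. Cyp2a5 (−1.95), Gulo (−0.92) and Por (−0.89) were lower and Nr1i3 (0.89) higher, and the median of the list was −0.57. Between infarcted groups 2 were higher and 6 lower in HMRKO + MI livers (14.6% and 16.2% of all genes). The interaction passed 1 higher and 3 lower (6.74% and 8.50% of all genes). Periportal genes mark the opposite end of the lobule. Of 24 such genes 8 rose and 5 fell in HMRKO + MI against HMRKO + sham livers, beside 22.0% and 21.7% of all genes. Arg1 (1.75) and Asl (1.60), enzymes of the urea cycle, were among those that rose. In LC mice 2 rose and 7 fell, among them Ass1 (−1.26) and Gls2 (−1.46), beside 2.68% and 2.33% of all genes. Between infarcted groups 7 were higher and 1 lower in HMRKO + MI livers (14.6% and 16.2% of all genes). Tat (1.96), Arg1 (1.25) and Ass1 (1.12) were among the higher. The interaction passed 6 of the periportal genes as higher and 0 as lower (6.74% and 8.50% of all genes). At 12 hours 12 of the pericentral genes were higher and 5 lower in C57 + MI livers. Of the periportal genes 16 were higher and 2 lower, and of all genes 34.3% and 32.0%. Limma on TPM called 5 pericentral genes higher and 6 lower, and 9 periportal genes higher and 6 lower. The 15 pericentral genes that fell in HMRKO mice became 11 to 16 when single livers were left out, and the 4 that fell in LC mice became 0 to 5, with 0 without LC + MI replicate 2 or LC + sham replicate 2, 1 when LC + sham replicate 3 was left out and 2 when LC + MI replicate 3 was. The 6 lower between infarcted groups became 2 without HMRKO + MI replicate 1 or 2 or LC + MI replicate 1 or 3. The 7 periportal genes that fell in LC mice became 1 without LC + MI replicate 2, 3 without LC + MI replicate 3 and 4 without LC + sham replicate 2, and the 5 in HMRKO mice became 3 without HMRKO + MI replicate 1 or 2. Between sham groups 0 of either list passed in edgeR, with 0 pericentral and 2 periportal genes at an unadjusted p under 0.05 (5.87% of all genes).

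**Figure D5:**
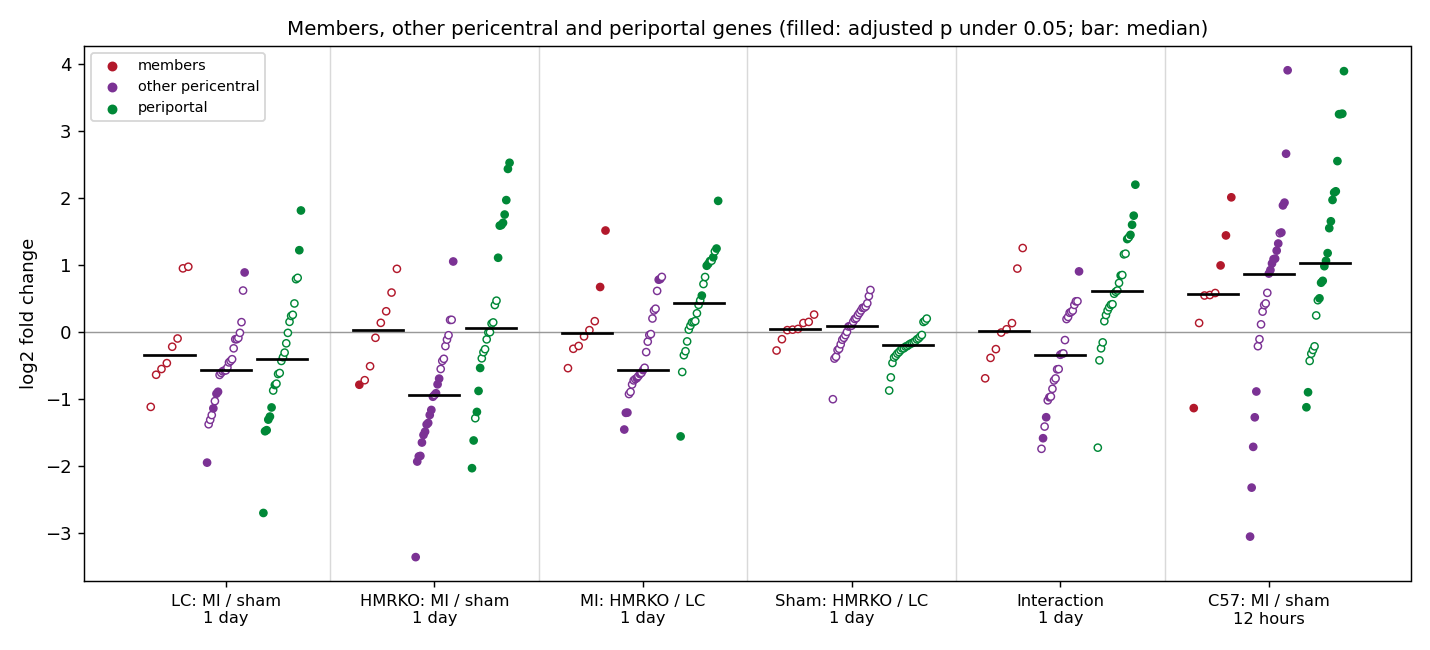
Fitted log2 fold change (y axis) of the 8 members, the 25 other pericentral genes and the 24 periportal genes in each comparison (x axis); each point is 1 gene, filled where the adjusted p was under 0.05, and bars are medians. The other pericentral genes centre on −0.94 in HMRKO mice. The members there centre on 0.03 and run from −0.79 for Rnf43 to 0.94 for Axin2.

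Glul and Oat were also set beside 16 other genes of nitrogen, glutamine and glutamate handling, 14 of them tested. In LC mice 5 fell and 0 rose, among them Slc7a2 (−2.11), Got1 (−1.44) and Slc38a3 (−1.12), beside 2.33% and 2.68% of all genes. In HMRKO mice 3 rose and 5 fell, beside 22.0% and 21.7% of all genes, with Aldh18a1 (2.30) and Gpt2 (1.79) higher and Slc38a3 (−1.93) lower. Between infarcted groups 4 were higher in HMRKO + MI livers and 0 lower, beside 14.6% and 16.2% of all genes. The higher ones were Slc7a2 (1.67), Aldh18a1 (1.87), Gpt2 (1.31) and Got1 (1.28). The interaction, which shares those livers, passed Slc7a2 (1.93), Gpt2 (1.99), Aldh18a1 (2.41) and Got1 (1.73). Aldh18a1 makes the precursor from which Oat can form ornithine. At 12 hours 6 were higher and 4 lower in C57 + MI livers, beside 34.3% and 32.0% of all genes.

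Markers of other cells moved as well. Of all genes, 22.0% rose and 21.7% fell in HMRKO mice, and 2.68% rose and 2.33% fell in LC mice. Between infarcted groups 14.6% were higher and 16.2% lower in HMRKO + MI livers. Of 11 genes of central vein and sinusoidal endothelium, 5 rose in HMRKO + MI against HMRKO + sham livers and 1, Fabp4 (2.12), in LC mice, and their summed level was 88.4 to 152 CPM in HMRKO + MI, 52.0 to 69.7 CPM in HMRKO + sham, 81.1 to 103 CPM in LC + MI and 61.6 to 71.1 CPM in LC + sham livers. Of 10 Kupffer cell genes 4 fell and 0 rose in LC mice, with sums of 152 to 169 CPM in LC + MI and 236 to 314 CPM in LC + sham livers. In HMRKO mice 3 of them fell and 1 rose, with sums of 102 to 192 CPM in HMRKO + MI and 149.7 to 222 CPM in HMRKO + sham livers. Between infarcted groups 1 was lower in HMRKO + MI livers, and between sham groups 0 passed in edgeR, with 7 at an unadjusted p under 0.05 (5.87% of all genes). Of 7 tested neutrophil genes 6 rose in HMRKO mice, with sums of 31.2 to 34.6 CPM in HMRKO + MI, 9.30 to 14.3 CPM in HMRKO + sham, 10.8 to 20.7 CPM in LC + MI and 4.93 to 13.2 CPM in LC + sham livers. Between infarcted groups, where Oat and Znrf3 passed, 5 of the 7 were higher in HMRKO + MI livers, Retnlg (2.80) and Mmp9 (2.09) among them. Of 10 stellate cell genes 4 rose in HMRKO mice and 0 passed in LC mice, 1 of 7 bile duct genes rose and 1 fell in HMRKO mice, and of 9 hepatocyte genes 3 rose in HMRKO mice and 1 in LC mice. Rspo3, which rose in HMRKO mice, is on the stellate, the endothelial and the ligand list. Of the muscle and fat genes, 1 could be tested, Cfd, and it fell in HMRKO mice (−3.57). The calls of these marker lists with single livers left out were not counted. The part of these cells in the values of the 8 genes was not tested.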

How the data were processed

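The members and the gene lists were chosen with earlier results of these data known. The authors deposited a table of raw counts by Ensembl gene for the livers at 1 day. For those at 12 hours the authors deposited, by Entrez gene and symbol, an estimated count that need not be whole, with TPM and FPKM values. The deposited FPKM columns and the authors' group averages were left out, and 0 columns of per-sample values were left unmapped. The deposited TPM values, scaled by the authors to a fixed total per library, gave 1 alternative and the comparison of levels between genes. HISAT2 2.1.0, Bowtie2 2.2.3, TopHat2, DESeq2 and the mm9 build appear, without roles, in the submitters' processing notes. Not given in the sources used here are the counter and whether it used strand. Overlapping and antisense genes therefore cannot be separated. The estimated counts were rounded.

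Genes were kept by filterByExpr (minimum count 10, minimum total 15), scaled by TMM and fitted with 1 coefficient per group in edgeR 4.0.16 (R 4.3.3), over 12 livers at 1 day (14266 genes) and, apart, 6 livers at 12 hours (12548 genes). The test was the quasi-likelihood F test, two-sided, with Benjamini-Hochberg adjustment over all genes tested; a gene passed at an adjusted p under 0.05. The study also asked for a 2-fold change, which was not required here. Alternatives were RLE size factors, DESeq2 1.42.0, no filter, a mean count of 50 or more, a replicate block, only the groups compared, leaving out each liver, limma 3.58.1 on log2(TPM + 1) among genes with a mean TPM of 1 or more, and C57 + MI libraries thinned to the sham depth, which was added after seeing the data. The edgeR script was tested on simulated data first.

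All 8 members are named in every comparison, from the other lists at most 4 genes per list and comparison with the smallest p among those that passed, the 3 genes with the highest Pearson r of log2(CPM + 0.5) to Glul and to Axin2 among genes with a mean CPM of 1 or more, and Nr3c2. A count named beside a list is of all its genes that passed. Promoter windows were taken from RefSeq on GRCm38.p6 and matched by symbol, and no coordinate of the deposited tables was used.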

Additional observations from a re-analysis of the deposited data

Results flagged for a closer look

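Znrf3 lay on opposite sides of its sham level after MI in 2 settings. In LC mice at 1 day every LC + MI liver was below every LC + sham liver, with a log2 fold change of −0.64, and in wild type mice at 12 hours every C57 + MI liver was above every C57 + sham liver, with 0.58. Neither value passed on its own, and the share of all genes whose groups separate in this way was not counted. The difference between the 2 was not tested, since the tables were made and normalized separately, and the 12 hour ratio was −0.07 on plain totals and −0.08 on TPM.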

How the results depend on the processing

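Of the 8 members, the number that passed for LC + MI against LC + sham was 0, and 1 by DESeq2 (Tbx3), 2 with no filter (Tbx3 and Oat), and 0 to 1 with single livers left out, where the 1 was Tbx3 without HMRKO + sham replicate 3. For HMRKO + MI against HMRKO + sham it was 1, and 2 by DESeq2 and with no filter, where Axin2 joined Rnf43, and 0 to 2 with single livers left out. For HMRKO + MI against LC + MI it was 2, 1 in a fit of those groups alone, and 0 to 3 with single livers left out, with 0 without LC + MI replicate 1 or HMRKO + MI replicate 3. For the sham groups it was 0 throughout, and for the interaction 0, 1 by DESeq2 and among genes with a mean of 50 counts or more, and 0 to 1 with single livers left out, where the 1 was Znrf3. At 12 hours it was 4, 6 with no filter (Glul and Znrf3 added), 1 among genes with a mean of 50 counts or more (Oat), 2 in limma on TPM (Oat and Lgr5), 3 with C57 + MI libraries thinned to the sham depth, an alternative chosen after seeing the data, and 3 to 4 with single livers left out. The cause of these changes was not tested.

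With the replicate number as a replicate block the numbers that passed were 0, 1, 2, 0, 0 and 4 in the same order of comparisons, and no member's call changed. The deviations of livers with the same number had an r from −0.17 to 0.18 at 1 day and from −0.09 to 0.02 at 12 hours, below 0.1 in most pairs, so the numbers were not taken to pair the samples.

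Over all genes, the calls for LC + MI against LC + sham were 382 higher and 332 lower, against 647 and 660 by DESeq2, 564 and 587 with no filter, 167 and 145 in a fit of those groups alone, with single livers left out 119 and 62 (LC + MI replicate 3), 121 and 55 (replicate 2 of that group), 139 and 106 (LC + sham replicate 2), 145 and 132 (replicate 3 of that group) and 563 and 554 (LC + MI replicate 1). Between sham groups they were 3 higher and 2 lower, and 33 and 18 by DESeq2, 53 and 31 with no filter, 0 and 1 in a fit of those groups alone, 3 and 0 with the replicate block, and 0 to 8 and 0 to 6 with single livers left out. For the interaction they were 962 and 1213, and 400 and 583 without LC + sham replicate 2, with all 3 HMRKO + MI livers, HMRKO + sham replicates 2 and 3 and LC + MI replicate 1 also lowering a count by over 1.5 times when left out (490 to 613 higher, 716 to 870 lower). For HMRKO + MI against LC + MI they were 2089 and 2311, and 1195 and 1369 without LC + MI replicate 1. At 12 hours they were 4299 and 4013, and 2193 and 4995 in limma on TPM. At 12 hours several members rest on few estimated reads in the sham libraries. The ranges were 2 to 15 for Axin2, 9 to 23 for Rhbg, 10 to 16 for Znrf3, 10 to 28 for Rnf43 and 19 to 30 for Lgr5.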
